A study of Mus musculus with 2 samples.

Results

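The genes described are 10 enzymes that make, use or break down ceramide: Sptlc2, Cers1, Cers2, Cers4, Cers5, Cers6, Degs1, Sgms1, Smpd3 and Ugt8a. They were taken by symbol from the 33696 genes of the deposited gene list, and all 10 were found. Transcripts were counted with unique molecular identifiers (UMIs) in 2 droplet libraries of mouse brain made with 10x Genomics 3′ chemistry, 1 from Shank3-/- mice given fluconazole, an antifungal azole, in drinking water for 2 weeks and 1 from Shank3-/- mice given vehicle for the same 2 weeks. Both libraries carry the Shank3 mutation, so no wild-type level was compared. The labels name brain, and the design text names prefrontal cortex; the number, age and sex of the mice in each library are not given in the sources used here. With 1 library per treatment there was no replicate and no test: every interval below is a 95% counting interval, and none holds the spread between animals.

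The fluconazole library held 12637 barcodes with 78380009 UMIs and the vehicle library 14924 barcodes with 76891692 UMIs. After filtering, 10610 barcodes of the fluconazole library and 12892 of the vehicle library were kept, with a median of 5258 UMIs per barcode in the fluconazole library and 4327 in the vehicle library. The libraries shared 31 kept barcode sequences. The kept barcodes formed 36 clusters, of which 31 were named by marker genes, and 13 cell classes had at least 50 barcodes in each library. Shank3, the mutated gene, still gave transcripts in glutamatergic neurons, at 79.0 CPM (counts scaled by 1e6 over all UMIs of the class) in the fluconazole library and 70.8 CPM in the vehicle library. Which part of Shank3 was deleted is not given in the sources used here, so 3′ counts do not check the genotype. Clusters with marker genes of spiny neurons of the striatum and of neuroblasts were present, although neither is a cortical cell type. Ribosomal protein transcripts made up 0.404% of UMIs in glutamatergic neurons of the fluconazole library and 0.528% in those of the vehicle library, and 16.0% in blood leukocytes of the fluconazole library and 15.1% in those of the vehicle library. The labels describe nuclei taken from frozen tissue and the design text speaks of both cells and nuclei, so the droplets are called barcodes here.

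Ceramide is the branch point of sphingolipid metabolism. Serine palmitoyltransferase, of which Sptlc2 is a subunit, condenses serine with palmitoyl-CoA, ceramide synthases add a fatty acid whose length depends on the synthase, and the desaturase Degs1 turns dihydroceramide into ceramide. Sgms1 then makes sphingomyelin in the Golgi, Smpd3 releases ceramide from sphingomyelin again, and Ugt8a adds galactose to make galactosylceramide, the lipid that myelin is rich in. In brain, Cers2 is known for the very long chains of myelin sphingolipids, Cers1 for the shorter chains of neuronal ceramide, and Cers5 and Cers6 for palmitoyl ceramide.

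RefSeq promoter windows on build GRCm38.p6, from 250 bases before to 50 bases after a gene's start, were at hand for 9 of the 10 genes, in 13 windows; Smpd3 had none. Cers2 had 2 windows, of which the one printed holds more CpG pairs. The windows of the 3 genes whose transcripts were highest in oligodendrocytes, Ugt8a, Cers2 and Degs1, and of Cers1, which was highest in neurons, are printed 5′ to 3′ on the gene's strand. Capitals mark GGGCGG and its reverse complement CCGCCC.
Ugt8a, chr3:125938603-125938902, minus strand: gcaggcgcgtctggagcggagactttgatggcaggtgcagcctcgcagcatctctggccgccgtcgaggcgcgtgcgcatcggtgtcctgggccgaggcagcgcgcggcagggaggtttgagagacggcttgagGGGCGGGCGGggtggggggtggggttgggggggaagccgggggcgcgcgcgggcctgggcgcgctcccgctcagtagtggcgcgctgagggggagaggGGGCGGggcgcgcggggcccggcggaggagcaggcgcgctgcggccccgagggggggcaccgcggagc
Cers2, chr3:95314940-95315239, plus strand: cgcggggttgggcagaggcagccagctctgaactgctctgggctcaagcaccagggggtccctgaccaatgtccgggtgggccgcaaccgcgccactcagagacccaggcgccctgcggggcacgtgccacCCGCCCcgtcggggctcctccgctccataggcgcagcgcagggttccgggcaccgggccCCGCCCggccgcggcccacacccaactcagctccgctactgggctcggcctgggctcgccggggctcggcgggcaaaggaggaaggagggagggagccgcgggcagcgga
Degs1, chr1:182282146-182282445, minus strand: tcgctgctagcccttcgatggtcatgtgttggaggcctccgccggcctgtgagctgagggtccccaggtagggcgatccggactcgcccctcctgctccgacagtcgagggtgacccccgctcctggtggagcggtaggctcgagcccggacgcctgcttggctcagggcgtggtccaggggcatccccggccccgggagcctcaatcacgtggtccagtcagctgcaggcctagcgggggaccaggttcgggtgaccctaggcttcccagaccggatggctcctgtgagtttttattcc
Cers1, chr8:70315525-70315824, plus strand: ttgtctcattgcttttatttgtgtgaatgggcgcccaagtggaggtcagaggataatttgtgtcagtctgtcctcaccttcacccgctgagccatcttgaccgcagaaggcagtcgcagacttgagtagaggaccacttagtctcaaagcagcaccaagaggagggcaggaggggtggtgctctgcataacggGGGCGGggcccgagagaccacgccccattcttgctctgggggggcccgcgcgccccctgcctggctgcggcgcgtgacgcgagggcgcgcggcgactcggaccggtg
The Ugt8a window held 3 matches to GGGCGG, 2 of which overlap, and the printed Cers2 window 2, the Cers1 window 1 and the Degs1 window 0. The other Cers2 window, at chr3:95318580-95318879, held 0 matches, 6 CpG pairs, 3 matches to CANNTG and 54.3% GC. Of 32851 windows of 300 bases, 35.7% held at least 1 match on either strand. GC content was 78.3% in the Ugt8a window, 75.0% in Cers2, 67.3% in Degs1 and 62.7% in Cers1, against a median of 52.7% over all windows. The Ugt8a window held 40 CpG pairs, against a median of 7. Searched on both strands, CANNTG occurred 1 time each in the Ugt8a, Cers2 and Cers1 windows and 3 times in Degs1, and 72.3% of all windows held it. The letters TATAAA and ACAAAG were in none of these 4 windows, and of all windows 13.6% held TATAAA and 18.7% held ACAAAG.

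The enzymes were highest in different cell classes, some of which were shared by several enzymes. The highest class was the same in both libraries for 9 of the 10 genes. Where intervals overlap below, the highest class is not set apart from the next. Ugt8a, Cers2 and Degs1 were highest in oligodendrocytes, Sgms1 and Cers4 in endothelial cells, Cers6 in GABAergic neurons, Cers1 and Smpd3 in spiny neurons of the striatum, and Sptlc2 in microglia. Cers5 was highest in fibroblasts in the fluconazole library and in mural cells in the vehicle library, and its intervals in these 2 classes overlapped in both libraries. The spread differed between genes: the highest class of Cers5 stood 1.66-fold above its median class with fluconazole and 1.87-fold with vehicle. For Ugt8a the median class, at 10.4 CPM with fluconazole and 12.2 CPM with vehicle, was no higher than the free RNA estimate, so no fold is given. Clusters were made without these 10 genes, so the pattern was not built into the classes.

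**Figure D1:**
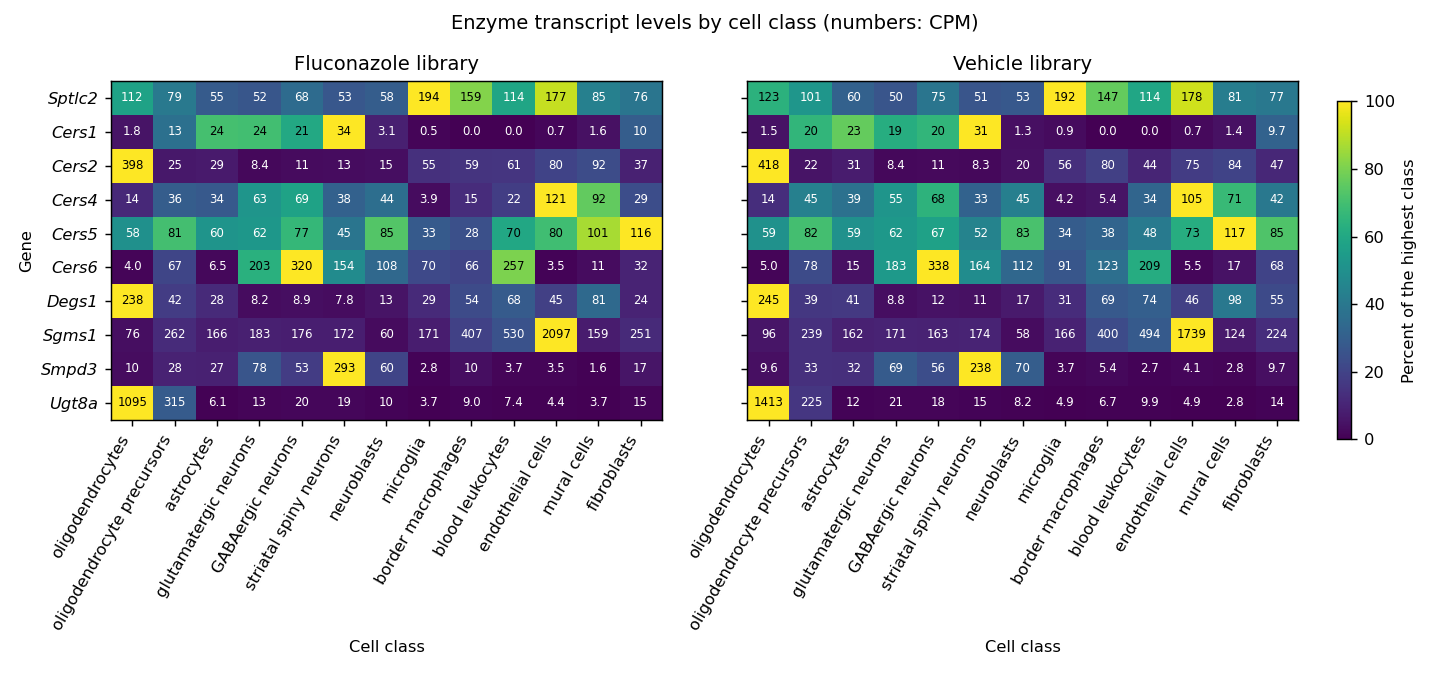
Transcript levels of the 10 enzymes (rows) in 13 cell classes (columns), fluconazole library on the left and vehicle library on the right. Numbers are CPM of summed UMIs and colours give the level as a percent of the gene's highest class; Ugt8a in oligodendrocytes, at 1095 CPM with fluconazole and 1413 CPM with vehicle, and Sgms1 in endothelial cells, at 2097 CPM with fluconazole and 1739 CPM with vehicle, stand far above their other classes.

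Sptlc2, which carries out the entry step, was present in every class. It was highest in microglia, at 194 CPM (187 to 202) in the fluconazole library and 192 CPM (185 to 199.5) in the vehicle library. Endothelial cells followed at 177 CPM with fluconazole and 178 CPM with vehicle and border macrophages at 159 CPM with fluconazole and 147 CPM with vehicle. Microglia and endothelial cells did not overlap in the fluconazole library and overlapped in the vehicle library, where the endothelial interval reached 186 CPM. Among the lowest were glutamatergic neurons, at 52.2 CPM in the fluconazole library and 50.4 CPM in the vehicle library. Spiny neurons of the striatum were close to them, at 53.2 CPM with fluconazole and 50.6 CPM with vehicle, and the 2 classes are not ordered. Among endothelial clusters, the one led by Il1r1, Gm5127 and Vwf stood at 244 CPM in the fluconazole library and 258 CPM in the vehicle library, and the other 3 stood between 142 and 149 CPM in the fluconazole library and between 127 and 156 CPM in the vehicle library.

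Cers2, the synthase of very long chain ceramide, was highest in oligodendrocytes. It stood at 398 CPM (380 to 417) in oligodendrocytes of the fluconazole library and 418 CPM (399 to 437) in those of the vehicle library, while glutamatergic neurons held 8.44 CPM in each. Oligodendrocytes gave 40.4% of all Cers2 UMIs in the fluconazole library and 44.0% in the vehicle library, from 4.30% with fluconazole and 4.48% with vehicle of the kept barcodes. After thinning each barcode to 1500 UMIs, a Cers2 UMI was seen in 44.7% of oligodendrocytes in the fluconazole library and 47.4% in the vehicle library (95.2% with fluconazole and 93.3% with vehicle before thinning). Oligodendrocytes had medians of 8909.5 UMIs with fluconazole and 7320 UMIs with vehicle per barcode, and 4 barcodes of each library were too shallow to thin. In glutamatergic neurons the thinned share was 1.19% in the fluconazole library and 1.58% in the vehicle library (8.40% with fluconazole and 6.80% with vehicle before thinning), with medians of 10518 UMIs with fluconazole and 7506 UMIs with vehicle per barcode and 73 barcodes of each library left out. A rough estimate of free RNA, set by C1q transcripts that neurons should lack, accounted for 86.7% of the glutamatergic Cers2 level in the fluconazole library and 101% in the vehicle library, so that level is read as background. Mural cells came next at 92.3 CPM with fluconazole and 84.1 CPM with vehicle, with endothelial cells at 80.2 CPM with fluconazole and 74.6 CPM with vehicle and border macrophages at 59.4 CPM with fluconazole and 79.6 CPM with vehicle. Intervals of mural and endothelial cells overlapped in both libraries.

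Cers6 had nearly the opposite pattern to Cers2. It stood at 320.4 CPM (299.8 to 342) in GABAergic neurons of the fluconazole library and 338 CPM (316 to 359.8) in those of the vehicle library, and at 4.03 CPM with fluconazole and 5.00 CPM with vehicle in oligodendrocytes. The free RNA estimate exceeded the Cers6 level of oligodendrocytes in both libraries, so that level is read as background. Blood leukocytes, glutamatergic neurons and spiny neurons of the striatum followed, the last at 154 CPM in the fluconazole library and 164 CPM in the vehicle library. Across 26 points, 13 classes in 2 libraries, Pearson's r of log2(CPM + 1) between Cers6 and Cers2 was -0.71; points of a library share its depth and its free RNA.

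Cers6 also differed between neuron clusters of 1 class. The GABAergic cluster led by Kcnmb2, 6330411D24Rik and Nxph1 held 389 CPM (362 to 418) in the fluconazole library and 395 CPM (369 to 423) in the vehicle library. The cluster led by Adarb2, Reln and Kcnip1 held 154 CPM (128 to 183) with fluconazole and 162 CPM (133 to 195) with vehicle. In both libraries the intervals of these 2 clusters were far apart. Among glutamatergic clusters, the layer 6 corticothalamic cluster, named by Foxp2, Syt6 and other markers, stood at 254 CPM with fluconazole and 248 CPM with vehicle. The layer 5 extratelencephalic cluster stood at 124 CPM with fluconazole and 130.2 CPM with vehicle. In blood leukocytes the cluster led by S100a9 and S100a8, genes abundant in neutrophils, and then by the class II antigen presentation genes H2-Aa, H2-Ab1 and H2-Eb1, held 472 CPM in the fluconazole library and 367 CPM in the vehicle library.

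**Figure D2:**
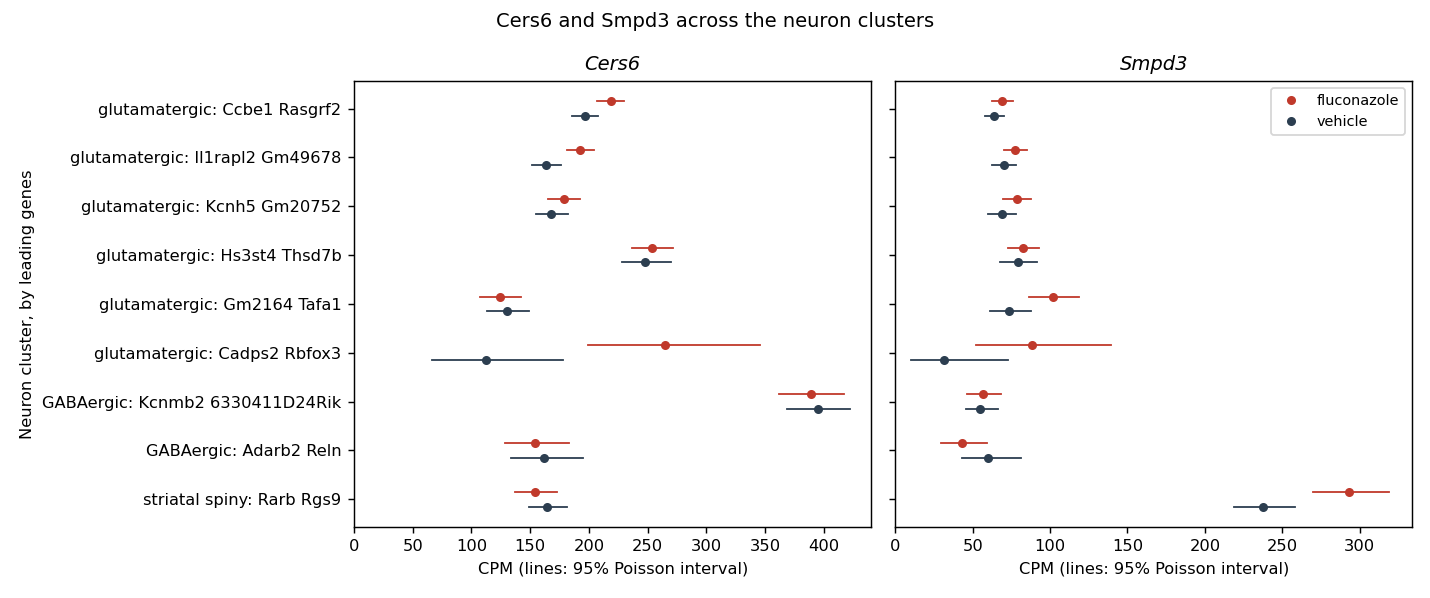
Cers6 (left) and Smpd3 (right) in CPM in 9 neuron clusters, with 95% Poisson intervals; the fluconazole library is the upper point and the vehicle library the lower point of each pair. Cers6 is highest in the GABAergic cluster led by Kcnmb2, at 389 CPM with fluconazole and 395 CPM with vehicle, and Smpd3 in the striatal cluster, at 293 CPM with fluconazole and 238 CPM with vehicle.

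Cers1 was low, and its higher levels lay in neurons, astrocytes and oligodendrocyte precursors. It stood at 34.4 CPM (26.6 to 43.8) in spiny neurons of the fluconazole library and 30.7 CPM (24.1 to 38.5) in those of the vehicle library. Astrocytes held 24.3 CPM with fluconazole and 23.4 CPM with vehicle, and the intervals of these 2 classes overlapped. Glutamatergic neurons held 23.9 CPM with fluconazole and 19.1 CPM with vehicle, and GABAergic neurons 20.7 CPM with fluconazole and 20.2 CPM with vehicle. Precursors held 12.7 CPM with fluconazole and 20.2 CPM with vehicle, from 10 and 20 UMIs. Fibroblasts held 10.1 CPM with fluconazole and 9.66 CPM with vehicle, from 6 and 9 UMIs. No Cers1 UMI was seen in border macrophages or blood leukocytes of either library, which with 3 counts as the limit allows up to 3.87 CPM in border macrophages of the fluconazole library and 4.05 CPM in those of the vehicle library. Microglia held 0.471 CPM with fluconazole and 0.858 CPM with vehicle. Cers1 lies on a transcript that it shares with Gdf1; Gdf1 had 0 UMIs in both libraries, and counts assigned to Cers1 cannot be told apart from a shared message. Its r with the ribosomal share of UMIs over the 26 points was -0.93, and that of Smpd3 was -0.76; both genes were highest in classes with a low ribosomal share.

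Cers4 and Cers5 were spread more evenly. Cers4 stood at 121 CPM (115 to 127) in endothelial cells of the fluconazole library and 105 CPM (98.8 to 111) in those of the vehicle library, followed by mural cells at 91.8 CPM with fluconazole and 70.5 CPM with vehicle and GABAergic neurons at 69.4 CPM with fluconazole and 67.8 CPM with vehicle. Microglia held the least Cers4, at 3.90 CPM with fluconazole and 4.16 CPM with vehicle. The free RNA estimate was 68.0% of that level with fluconazole and 70.4% with vehicle. In the vehicle library border macrophages held 5.40 CPM from 4 UMIs, too few to order the 2 classes there. Cers5 ranged between 28.4 and 116 CPM over the classes of the fluconazole library and between 33.9 and 117 CPM over those of the vehicle library. Microglia and border macrophages were its lowest classes in both libraries.

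Degs1, the desaturase, followed Cers2. It stood at 238 CPM (224 to 253) in oligodendrocytes of the fluconazole library and 245 CPM (231 to 260.2) in those of the vehicle library, and at 81.1 CPM with fluconazole and 98.3 CPM with vehicle in mural cells. Glutamatergic neurons held 8.15 CPM with fluconazole and 8.82 CPM with vehicle, of which the free RNA estimate accounted for 57.0% in the fluconazole library and 65.6% in the vehicle library. Over the 26 points r between Degs1 and Cers2 was 0.94, and no other of the 13697 genes compared had a higher r with Degs1. Both genes also differed between the 2 astrocyte clusters. In the cluster led by Aldoc, Mt3 and Gpr37l1, Degs1 held 55.0 CPM in the fluconazole library and 79.3 CPM in the vehicle library, and in the cluster led by Gm20713, Gpc5 and Wdr17 it held 7.65 CPM with fluconazole and 14.8 CPM with vehicle. These clusters differed in depth too, with medians of 5795 UMIs per barcode for the cluster led by Aldoc and 2166 for the cluster led by Gm20713 in the fluconazole library, and in the ribosomal share of UMIs, at 1.81% for the cluster led by Aldoc and 0.690% for that led by Gm20713. The part of depth and RNA content in the Degs1 difference was not tested.

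Sgms1, sphingomyelin synthase, was concentrated in endothelial cells. Endothelial cells held 2097 CPM (2071 to 2123) in the fluconazole library and 1739 CPM (1714 to 1763) in the vehicle library, and gave 67.3% with fluconazole and 63.4% with vehicle of all Sgms1 UMIs. At 1500 UMIs per barcode, 91.5% of endothelial barcodes in the fluconazole library and 87.6% in the vehicle library had an Sgms1 UMI. Before thinning these shares were 95.8% with fluconazole and 93.5% with vehicle. In neuroblasts, the lowest class, the thinned share was 7.11% with fluconazole and 6.10% with vehicle. The free RNA estimate exceeded the neuroblast Sgms1 level in both libraries, so that level is read as background. Median depth was 3211 UMIs with fluconazole and 2853.5 UMIs with vehicle in endothelial cells and 6153 UMIs with fluconazole and 5167 UMIs with vehicle in neuroblasts, and thinning left out 273 endothelial barcodes with fluconazole and 464 with vehicle, and 34 neuroblast barcodes with fluconazole and 61 with vehicle. Blood leukocytes followed at 529.6 CPM with fluconazole and 494 CPM with vehicle and border macrophages at 407 CPM with fluconazole and 399.6 CPM with vehicle. Oligodendrocytes, whose ceramide galactosyltransferase was highest, held 76.4 CPM in the fluconazole library and 96.1 CPM in the vehicle library. In oligodendrocytes there were 14.3 Ugt8a UMIs per Sgms1 UMI in the fluconazole library and 14.7 in the vehicle library. In endothelial cells that ratio was 0.00212 in the fluconazole library and 0.00281 in the vehicle library. The free RNA estimate was 130% of the endothelial Ugt8a level with fluconazole and 182% with vehicle, so the Ugt8a part of that ratio is read as background.

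Smpd3, neutral sphingomyelinase, was highest in neurons and neuroblasts here. Spiny neurons of the striatum held 293 CPM (269.6 to 319) in the fluconazole library and 238 CPM (219 to 258) in the vehicle library. Glutamatergic neurons, neuroblasts and GABAergic neurons came next, at 77.8, 60.05 and 52.6 CPM in the fluconazole library and 68.7, 69.9 and 56.2 CPM in the vehicle library. Neighbouring intervals among these 3 overlapped in both libraries, except between glutamatergic neurons and neuroblasts in the fluconazole library. Astrocytes held 26.9 CPM with fluconazole and 32.2 CPM with vehicle, and oligodendrocyte precursors 28.0 CPM with fluconazole and 33.3 CPM with vehicle. The free RNA estimate was 21.9% of the astrocyte level with fluconazole and 22.2% with vehicle. For precursors it was 28.5% with fluconazole and 26.2% with vehicle. At 1500 UMIs per barcode, 42.4% of striatal barcodes in the fluconazole library and 32.1% in the vehicle library had an Smpd3 UMI (87.1% with fluconazole and 72.0% with vehicle before thinning). Microglia, with a thinned share of 0.676% with fluconazole and 0.804% with vehicle, gave the background (1.70% with fluconazole and 1.78% with vehicle before thinning). Median depth was 7539 UMIs with fluconazole and 5393.5 UMIs with vehicle in striatal barcodes and 5992 UMIs with fluconazole and 4591.5 UMIs with vehicle in microglia, and thinning left out 4 striatal barcodes with fluconazole and 6 with vehicle, and 44 of each library in microglia.

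Ugt8a marked the oligodendrocyte lineage. Oligodendrocytes held 1095 CPM (1064 to 1126) in the fluconazole library and 1413 CPM (1379 to 1448) in the vehicle library. Their precursors held 315 CPM (277 to 357) with fluconazole and 225 CPM (197 to 257) with vehicle. Outside the lineage no class passed 21.4 CPM in either library. At 1500 UMIs per barcode a Ugt8a UMI was seen in 77.2% of oligodendrocytes in the fluconazole library and 86.8% in the vehicle library (98.5% with fluconazole and 99.3% with vehicle before thinning), in 28.7% with fluconazole and 18.2% with vehicle of precursors (46.6% with fluconazole and 37.3% with vehicle before thinning) and in 0.840% with fluconazole and 0.744% with vehicle of endothelial cells (1.95% with fluconazole and 1.80% with vehicle before thinning). Precursors had medians of 3632 UMIs with fluconazole and 2783 UMIs with vehicle per barcode, and 11 of them with fluconazole and 33 with vehicle were left out.

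The fluconazole library was then set against the vehicle library within each class. Of 130 pairs of a gene and a class, 84 had at least 100 UMIs over both libraries and are read here. The log2 ratio reached 0.5 in size in 4 of the 84, all of them lower with fluconazole: Ugt8a in glutamatergic neurons, Degs1 in astrocytes, and Cers6 in border macrophages and in endothelial cells. Over all genes with as many UMIs, 6.30% passed that size in either direction in glutamatergic neurons, 5.28% in astrocytes, 8.72% in border macrophages and 4.33% in endothelial cells. The shares that were lower by that size were 4.13% in glutamatergic neurons, 3.74% in astrocytes, 4.41% in border macrophages and 2.44% in endothelial cells. The enzymes past 0.5 were 1 of 10 readable ones in glutamatergic neurons, 1 of 8 in astrocytes, 1 of 4 in border macrophages and 1 of 8 in endothelial cells, counts too small to set apart from those shares. No enzyme reached 0.5 in the other 9 classes, among them 4 where the share of all genes that did was 4.27% in oligodendrocytes, 4.43% in microglia, 6.39% in GABAergic neurons and 5.60% in neuroblasts. After thinning, Degs1 in astrocytes stood at -0.22 and Cers6 in endothelial cells at -0.35, both short of 0.5, and at resolution 0.5 of the clustering Degs1 in astrocytes stood at -0.48. The counting interval left out 0 in 19 pairs, 12 higher and 7 lower. The share of all genes whose interval did so was not counted. These 19 pairs are therefore not read as a result about the enzymes.

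**Figure D3:**
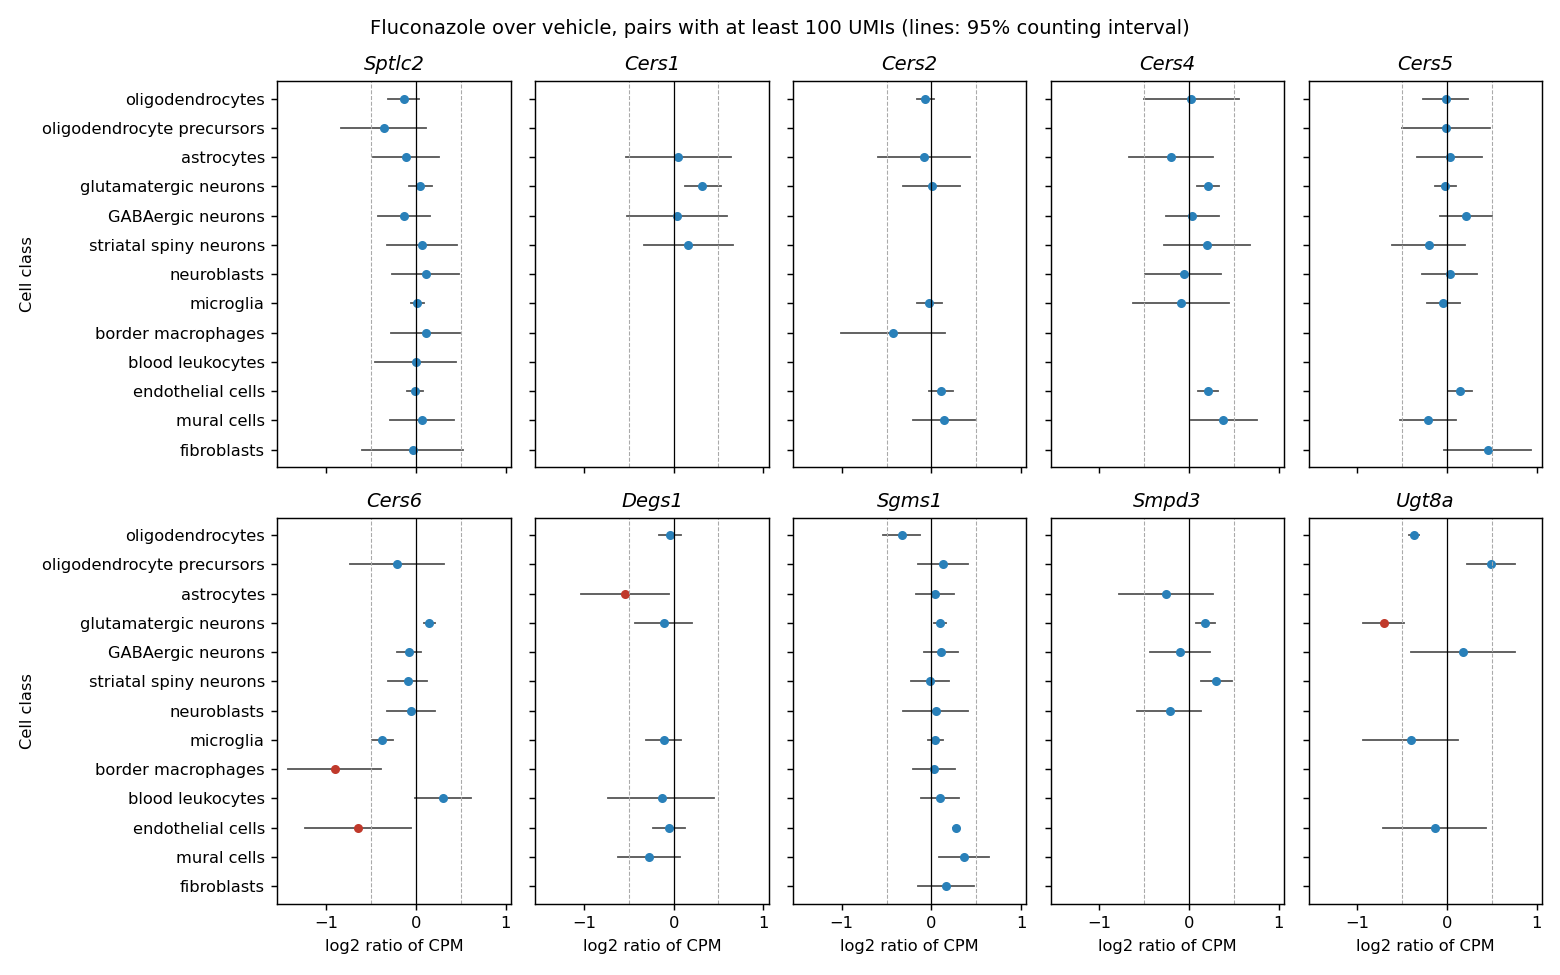
Log2 ratio of CPM, fluconazole over vehicle, for each enzyme (panels) in each class (rows) with at least 100 UMIs; lines are 95% counting intervals, dashed lines stand at -0.5 and 0.5, and red points lie beyond them. The red points are Ugt8a in glutamatergic neurons at -0.71, Degs1 in astrocytes at -0.54, and Cers6 in border macrophages at -0.90 and in endothelial cells at -0.64.

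Oligodendrocytes held less Ugt8a with fluconazole, with smaller differences for the other genes of the galactosylceramide branch. Ugt8a had 1095 CPM in the fluconazole library against 1413 CPM in the vehicle library, a log2 ratio of -0.37 (-0.42 to -0.31). The 2 level intervals did not overlap. In the unnamed cluster of low UMI count with oligodendrocyte markers Ugt8a went the other way, at 0.25 (interval 0.06 to 0.44). Gal3st1 stood there at 0.65 (interval 0.18 to 1.12), Fa2h at -0.01 and the summed oligodendrocyte markers at 0.21. Fa2h, which hydroxylates the fatty acid of myelin galactosylceramide, stood at 502 CPM with fluconazole and 532 CPM with vehicle (-0.08), and Gal3st1, which adds sulfate to make sulfatide, at 205 CPM with fluconazole and 232 CPM with vehicle (-0.18, interval -0.31 to -0.05). The summed level of 10 oligodendrocyte markers was lower as well, at 38636 CPM in the fluconazole library and 43660 CPM in the vehicle library (-0.18), with 8 of the 10 lower and none at 0; its part in the Ugt8a difference was not tested. Cers2 at -0.07, Degs1 at -0.04 and Cers5 at -0.02 stood close to even, with intervals reaching to both sides of 0. Sgms1 was lower at 76.4 CPM with fluconazole against 96.1 CPM with vehicle (-0.33, interval -0.54 to -0.12). Endothelial markers in oligodendrocytes were lower too, at 212 CPM with fluconazole and 295 CPM with vehicle (-0.48; 9 of 10 lower, none at 0). The free RNA estimate was 47.5% of the Sgms1 level with fluconazole and 28.9% with vehicle, and with it taken off the log2 ratio was -0.76; the part of these markers in the difference was not tested.

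In oligodendrocyte precursors the same 3 genes were higher with fluconazole. Ugt8a stood at 315 CPM in the fluconazole library against 225 CPM in the vehicle library (0.49, interval 0.22 to 0.75). Fa2h stood at 137 CPM with fluconazole and 90.9 CPM with vehicle (0.60, interval 0.18 to 1.02) and Gal3st1 at 99.2 CPM with fluconazole and 65.6 CPM with vehicle (0.60, interval 0.10 to 1.09). The summed oligodendrocyte markers moved the same way, at 3974 CPM in the fluconazole library and 2558 CPM in the vehicle library (0.64; 3 of 10 lower, none at 0), as did 8 markers of newly formed oligodendrocytes, at 4096 CPM with fluconazole and 2840 CPM with vehicle (0.53; 2 of 8 lower, none at 0). The part of those markers in the result was not tested. The class was small, with 133 barcodes in the fluconazole library and 209 in the vehicle library, and 16.9% of all genes in it passed 0.5 in either direction and 8.78% as higher. Among barcodes with at least 1000 genes the Ugt8a ratio was 0.17, and without the richest barcode of each library it was 0.34.

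**Figure D4:**
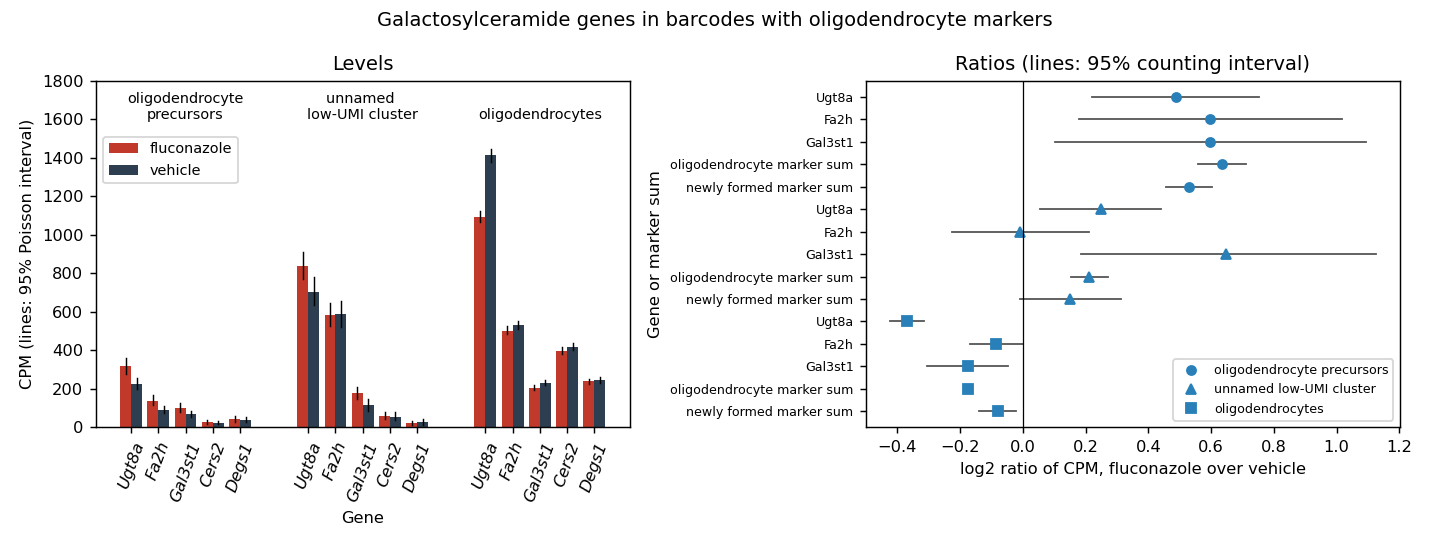
Left, CPM of 5 genes in oligodendrocyte precursors, an unnamed cluster of low UMI count with oligodendrocyte markers, and oligodendrocytes, as bars from 0 with 95% Poisson intervals, fluconazole library left of vehicle library. Right, log2 ratios of 3 of these genes and of 2 marker sums. Ugt8a stands at 0.49 in precursors, 0.25 in the unnamed cluster and -0.37 in oligodendrocytes. The oligodendrocyte markers stand on the same side of 0 in each, at 0.64, 0.21 and -0.18.

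Outside the lineage, Ugt8a was lower in glutamatergic neurons, at 13.1 CPM (11.6 to 14.8) in the fluconazole library against 21.4 CPM (19.3 to 23.6) in the vehicle library, a log2 ratio of -0.71 (-0.93 to -0.48). The intervals did not overlap. In the layer 2/3 cluster it stood at 9.32 CPM with fluconazole and 23.5 CPM with vehicle, and in the layer 6 corticothalamic cluster at 16.4 CPM with fluconazole and 12.96 CPM with vehicle, with overlapping intervals. Oligodendrocyte markers were also present in this class and were lower with fluconazole, at 314 CPM with fluconazole against 388 CPM with vehicle (-0.30; 8 of 10 lower, none at 0). Ugt8a UMIs per oligodendrocyte marker UMI stood at 1.47 times the value of oligodendrocytes in the fluconazole library and 1.70 times in the vehicle library. The free RNA estimate was 82.1% of the neuronal Ugt8a level in the fluconazole library and 74.8% in the vehicle library, and with that estimate taken off the log2 ratio was -1.23.

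Endothelial cells held more Sgms1 with fluconazole. The class stood at 2097 CPM in the fluconazole library against 1739 CPM in the vehicle library (0.27, interval 0.24 to 0.30), from 25484 UMIs with fluconazole and 19229 UMIs with vehicle. The difference had the same direction in all 4 endothelial clusters, and the level intervals of the libraries were apart in each. In the cluster led by Gkn3, Bmx and Mgp it stood at 2430 CPM with fluconazole and 2129 CPM with vehicle (0.19), and in the cluster led by Il1r1, Gm5127 and Vwf at 1728 CPM with fluconazole and 1304 CPM with vehicle (0.41). In the clusters led by Cxcl12 and Hmcn1 it stood at 2069 CPM with fluconazole and 1705 CPM with vehicle (0.28) and at 2341 CPM with fluconazole and 1947 CPM with vehicle (0.27). The sum of 10 endothelial markers stood at 24414 CPM with fluconazole and 25304 CPM with vehicle (-0.05, with 7 of 10 lower and none at 0). Mural markers stood at 451 CPM with fluconazole and 370 CPM with vehicle in this class (0.29; 2 of 10 lower, none at 0) and astrocyte markers at 681 CPM with fluconazole and 558 CPM with vehicle (0.29; 3 of 10 lower, none at 0); their part in the Sgms1 difference was not tested. Cers4 was higher at 121 CPM with fluconazole against 105 CPM with vehicle (0.21, interval 0.09 to 0.32) and Cers5 at 80.5 CPM with fluconazole against 72.9 CPM with vehicle (0.14, interval 0.01 to 0.28). Sptlc2 at -0.01, Degs1 at -0.05 and Cers2 at 0.10 had intervals that reached both sides of 0. The median over all genes of the class was -0.01.

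Acer2 and Asah2, which split ceramide, were also higher in endothelial cells. Of 32 other genes of the pathway with at least 100 UMIs, 2 reached 0.5 and both were higher: Acer2, a ceramidase of the Golgi, at 232 CPM with fluconazole and 164 CPM with vehicle (0.51, interval 0.42 to 0.59) and Asah2, neutral ceramidase, at 64.5 CPM with fluconazole and 44.3 CPM with vehicle (0.54, interval 0.38 to 0.71). Over all genes of the class 1.89% were higher by that size. Acer2 was higher in each of the 4 clusters, with log2 ratios between 0.42 and 0.59. Asah2 had an interval across 0 in the 2 clusters led by Cxcl12 and Hmcn1, at 0.28 (-0.12 to 0.69) and 0.16 (-0.20 to 0.51). The other ceramidases that could be read, Asah1 at 0.08 and Acer3 at 0.09, had intervals on both sides of 0. Degs2, a second desaturase that also hydroxylates, stood at 169 CPM with fluconazole and 132 CPM with vehicle (0.36); it was chosen after its values were seen. Cers6 was lower in this class, at 3.54 CPM with fluconazole against 5.52 CPM with vehicle (-0.64), but these are 43 UMIs with fluconazole and 61 UMIs with vehicle, and the free RNA estimate exceeded the level in both libraries. Markers of GABAergic neurons, the class highest in Cers6, were lower too, at 28.9 CPM with fluconazole and 45.7 CPM with vehicle (-0.66; 10 of 10 lower, none at 0).

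**Figure D5:**
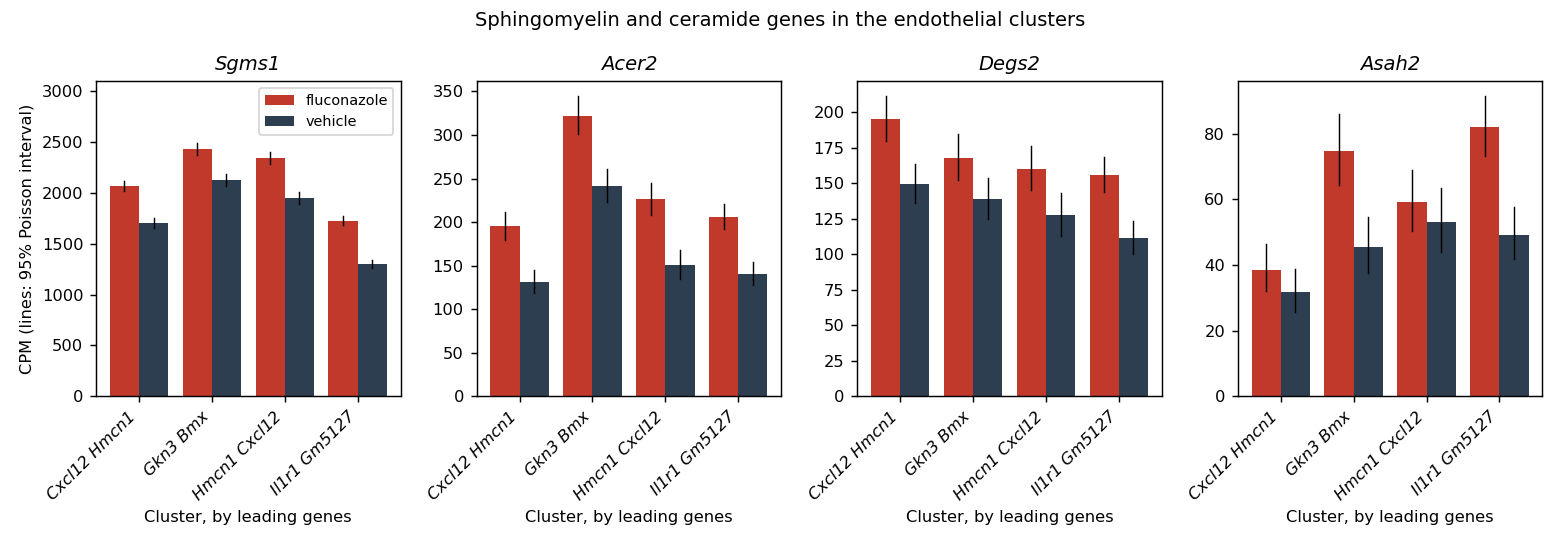
CPM of Sgms1, Acer2, Degs2 and Asah2 in the 4 endothelial clusters, named by their 2 leading genes; bars start at 0, the fluconazole library stands left of the vehicle library, and lines are 95% Poisson intervals. Sgms1 is higher in the fluconazole library in every cluster, with 2430 CPM against 2129 CPM with vehicle in the cluster led by Gkn3 and 1728 CPM against 1304 CPM with vehicle in the cluster led by Il1r1.

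Glutamatergic neurons held slightly more of several enzymes with fluconazole. In glutamatergic neurons Cers1 stood at 23.9 CPM in the fluconazole library against 19.1 CPM in the vehicle library (0.32, interval 0.12 to 0.52), Cers4 at 63.1 CPM with fluconazole and 54.6 CPM with vehicle (0.21), Smpd3 at 77.8 CPM with fluconazole and 68.7 CPM with vehicle (0.18), Cers6 at 203 CPM with fluconazole and 183 CPM with vehicle (0.15) and Sgms1 at 183 CPM with fluconazole and 171 CPM with vehicle (0.10). Each of these 5 intervals left out 0, and none of the 5 ratios reached 0.5. How many of all genes in the class had an interval that left out 0 was not counted. Sptlc2, Cers2, Cers5 and Degs1 had intervals on both sides of 0. The 9 markers of glutamatergic neurons were higher as well, at 1889 CPM in the fluconazole library and 1642 CPM in the vehicle library (0.20; 1 of 9 lower, none at 0), as were those of spiny neurons in the same class, at 929 CPM with fluconazole and 720 CPM with vehicle (0.37; 4 of 10 lower, none at 0), and their part in these differences was not tested. In spiny neurons of the striatum Smpd3 stood at 293 CPM with fluconazole against 238 CPM with vehicle (0.30, interval 0.13 to 0.47). The 10 markers of those neurons were higher as well, at 5580 CPM with fluconazole and 4068 CPM with vehicle (0.46; 2 of 10 lower, none at 0), and their part in the Smpd3 difference was not tested. In GABAergic neurons none of the 8 readable enzymes had an interval that left out 0. Ribosomal transcripts were lower in all 3 neuron classes, in glutamatergic neurons at 0.404% of UMIs in the fluconazole library and 0.528% in the vehicle library.

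Microglia and border macrophages held less Cers6 with fluconazole, as did several other classes. Its log2 ratio was -0.64 in endothelial cells. Under 100 UMIs, it was -1.22 in astrocytes, -1.08 in fibroblasts, -0.61 in mural cells and -0.31 in oligodendrocytes. The mural and oligodendrocyte intervals reached both sides of 0. In astrocytes the free RNA estimate exceeded the Cers6 level in both libraries. Cers6 stood above 0 in glutamatergic neurons (0.15) and blood leukocytes (0.30). In microglia it stood at 70.1 CPM (65.9 to 74.5) in the fluconazole library against 91.0 CPM (86.2 to 95.9) in the vehicle library (-0.38, interval -0.49 to -0.26). The difference was present in both large microglia clusters, at 69.5 CPM with fluconazole and 88.6 CPM with vehicle in the cluster led by Ptpro and at 71.3 CPM with fluconazole and 94.7 CPM with vehicle in the cluster led by Ccl4 and Ccl3. Markers of GABAergic neurons were lower in microglia as well, at 15.6 CPM with fluconazole and 27.2 CPM with vehicle (-0.80, with 10 of 10 lower and none at 0). Their part in the Cers6 difference was not tested. The free RNA estimate was 6.81% of the microglial Cers6 level in the fluconazole library and 6.93% in the vehicle library. Endothelial markers set that estimate, not markers of neurons. In border macrophages Cers6 stood at 65.8 CPM with fluconazole and 123 CPM with vehicle (-0.90, interval -1.42 to -0.39). These levels came from 51 UMIs with fluconazole and 91 UMIs with vehicle. GABAergic markers stood there at 25.8 CPM with fluconazole and 25.6 CPM with vehicle (0.01, with 3 of 10 lower and 4 at 0 in each library). The sum of 10 microglia markers was -0.11 in microglia and the sum of 8 border macrophage markers 0.13 in border macrophages. The other 7 readable enzymes of microglia had intervals on both sides of 0, among them Sptlc2 at 0.02 and Sgms1 at 0.05. In blood leukocytes Cers6 stood at 257 CPM with fluconazole and 209 CPM with vehicle (0.30, interval -0.01 to 0.61), a class in which 20.7% of genes passed 0.5. The 11 leukocyte markers of that class stood at 4062 CPM with fluconazole and 23006 CPM with vehicle (-2.50; 5 of 11 lower, none at 0), and endothelial markers at 423 CPM with fluconazole and 1720 CPM with vehicle (-2.02; 10 of 10 lower, none at 0). In microglia, border macrophages and blood leukocytes the free RNA estimate was set by the endothelial markers Cldn5, Ly6c1 and Itm2a, not by C1q transcripts. For blood leukocytes it was 6.18% of UMIs with fluconazole and 31.5% with vehicle, so it is not separate from the endothelial marker difference. The part of these in the differences of the class was not tested.

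Mural cells, astrocytes and fibroblasts held few UMIs. In mural cells Sgms1 stood at 159 CPM with fluconazole against 124 CPM with vehicle (0.36, interval 0.09 to 0.64). The difference lay in the cluster led by Tagln, Acta2 and Myh11, smooth muscle genes, at 159 CPM with fluconazole and 71.9 CPM with vehicle (1.15, interval 0.66 to 1.65). The cluster led by Vtn, Atp13a5 and Abcc9 stood at 159 CPM with fluconazole and 171 CPM with vehicle (-0.11, interval -0.45 to 0.24). With doublets kept, the ratio over the class was -0.076. Endothelial markers stood at 939 CPM with fluconazole and 457 CPM with vehicle in the smooth muscle cluster (1.04; 10 of 10 higher), and at 1405 CPM with fluconazole and 1293 CPM with vehicle in the other (0.12); their part in the Sgms1 difference was not tested. Cers4 was higher in mural cells too, at 91.8 CPM with fluconazole and 70.5 CPM with vehicle (0.38, interval 0.02 to 0.75). Endothelial markers over the class stood at 0.41, and their part in the Cers4 difference was not tested. In mural cells 5.77% of genes passed 0.5. In astrocytes Degs1 stood at 28.2 CPM with fluconazole and 41.0 CPM with vehicle (-0.54, interval -1.03 to -0.06) from 65 UMIs with fluconazole and 84 UMIs with vehicle, and ribosomal transcripts were lower too, at 1.18% of UMIs with fluconazole and 1.47% with vehicle. Oligodendrocyte markers in astrocytes stood at 251 CPM with fluconazole and 403 CPM with vehicle (-0.68; 8 of 10 lower, none at 0), and their part in the Degs1 difference was not tested. In fibroblasts Cers6 and Degs1 had under 100 UMIs, and 3 enzymes could be read, none past 0.5, against 18.3% of genes.

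The 41 other genes of ceramide, sphingomyelin and galactosylceramide metabolism showed no direction common to all classes. In neuroblasts 3 readable genes were above 0 and 11 below, with a median log2 ratio of -0.10, against -0.01 over all genes. In border macrophages 2 were above 0 and 8 below (-0.18, against 0.01), and in microglia 12 above and 19 below. Precursors had 6 above 0 and 2 below. In glutamatergic neurons 32 were readable, with none past 0.5 and a median of -0.00, against -0.03 over all genes. In oligodendrocytes none of 25 passed, with a median of 0.01. In microglia 1 of 31 passed: Ormdl3, an inhibitor of serine palmitoyltransferase, was lower at 16.4 CPM with fluconazole and 23.8 CPM with vehicle (-0.53). In GABAergic neurons 2 of 20 passed, against 6.39% of all genes in either direction, and were higher: Sptssa, a small subunit of that enzyme, at 22.2 CPM with fluconazole and 14.1 CPM with vehicle (0.66) and Ugcg, which makes glucosylceramide, at 31.8 CPM with fluconazole and 18.4 CPM with vehicle (0.79). In precursors the 2 that passed of 8 were Fa2h and Gal3st1. In spiny neurons Sgpp2, a sphingosine-phosphate phosphatase, was higher at 58.4 CPM with fluconazole and 36.0 CPM with vehicle (0.70), in a class where 11.4% of genes passed. In mural cells 1 of 14 passed, against 5.77% of all genes: Samd8 was higher at 45.4 CPM with fluconazole and 30.6 CPM with vehicle (0.57). In border macrophages 1 of 10 passed, against 8.72%: the ceramidase Acer3 was lower at 74.8 CPM with fluconazole and 116 CPM with vehicle (-0.63). In astrocytes 1 of 18 passed, against 5.28%. It was Sgpl1, sphingosine-phosphate lyase, lower at 28.6 CPM with fluconazole and 40.5 CPM with vehicle (-0.50). No gene of the list passed in neuroblasts or fibroblasts, where 14 and 5 were readable. In blood leukocytes 12 were readable, and 20.7% of all genes passed. Sgms2, the sphingomyelin synthase of the plasma membrane, was lower there at 71.7 CPM with fluconazole and 158 CPM with vehicle (-1.14). B4galt5, Acer3 and Psap were higher, at 1.06, 0.99 and 0.51 on the log2 scale. In that class its own markers stood at -2.50 and endothelial markers at -2.02.

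Genes whose pattern over the classes was most like each enzyme were named by Pearson's r of log2(CPM + 1) over the same 26 points. Fa2h was nearest to Ugt8a (0.97), and Gjc3 was also among the nearest (0.95). Elovl1, an elongase of very long chain fatty acids, was nearest to Cers2 (0.96), with Fth1 (0.95) and Ddrgk1 (0.94). Pecam1, Bmx and Gbp9 were nearest to Sgms1, at 0.91, 0.88 and 0.88. Tenm4, Rims2 and Gm49003 were nearest to Smpd3, at 0.94, 0.92 and 0.92. L1cam led for Cers6 at 0.93, Rasgrp3 for Sptlc2 at 0.94, Dab2ip for Cers4 at 0.91, Twsg1 for Cers5 at 0.88 and Rsf1os2 for Cers1 at 0.97. Among the 10 enzymes, Cers1 and Smpd3 went together (0.80), as did Cers4 and Cers5 (0.71). Sptlc2, Cers2 and Degs1 ran opposite to Smpd3 (-0.79, -0.75 and -0.74). With the ribosomal share of UMIs, r was 0.65 for Sptlc2, 0.61 for Cers2 and 0.62 for Degs1, against -0.93 for Cers1 and -0.76 for Smpd3. The part of that share in these likenesses was not tested.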

How the data were processed

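UMI counts per gene and barcode were used as deposited, with no normalization; they are whole-number counts in matrix files whose header names Cell Ranger 8.0.1, while the submitters' processing notes list mm10, R 4.0.3, Seurat 4.0.0 and version 9.0.0 of Cell Ranger. Whether introns were counted and how barcodes were called is not given in the sources used here. Of 33696 gene identifiers, 31961 are in GENCODE vM21. The genes described, their pathway list and the markers were chosen with earlier results of these data known.

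A barcode was kept if it had 500 or more genes and no more than 5% mitochondrial UMIs; scanpy 1.11.5 and its Scrublet (expected rate 8%) marked 517 doublets in the fluconazole library and 617 in the vehicle library, which were left out. Counts were scaled to 10000, 2848 variable genes without the 10 enzymes gave 30 components, and 15 neighbours and Leiden clustering at resolution 1.0 gave 36 clusters. A cluster was named when at least 3 markers of a class stood 2-fold above the other clusters and in at least 10% of its barcodes; 5 stayed unnamed for low UMI counts or markers of another class, and 69 barcodes with 20% or more haemoglobin UMIs were set apart. Names are rebuilt, so they may differ from the study's.

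UMIs were summed per class and library and given as CPM with exact Poisson intervals; shares have Clopper-Pearson intervals, and log2 ratios of fluconazole over vehicle have exact conditional binomial intervals, all at 95% and for counting error only. Ratios and shares of genes past 0.5 use genes with at least 100 UMIs. The interval code was tested on simulated counts. All 10 enzymes are named in every class; other pathway genes are named where they pass 0.5 (up to 3 in each direction per class), and likeness names the 3 nearest genes among those with at least 20 CPM in a class; some named genes are not reported here. Alternatives were another scaling, doublets kept, at least 1000 genes, thinning to 1500 UMIs, an unweighted mean over clusters, a rough free RNA correction, leaving out the richest barcode, the enzymes kept for clustering, and resolution 0.5.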

Additional observations from a re-analysis of the deposited data

Results flagged for a closer look

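For 3 genes the counting interval lay wholly above 0 in 1 class and wholly below 0 in another, and the most distant such pair of classes is given; the difference between the classes was not tested, since each treatment has 1 library. Cers6 stood at a log2 ratio of 0.15, fluconazole over vehicle, in glutamatergic neurons and at -0.90 in border macrophages. Sgms1 stood at 0.36 in mural cells and at -0.33 in oligodendrocytes. Ugt8a stood at 0.49 in oligodendrocyte precursors and at -0.71 in glutamatergic neurons.

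Ugt8a was also abundant in barcodes outside the compared classes. An unnamed cluster of 346 barcodes in the fluconazole library and 357 in the vehicle library, showing 7 of 10 oligodendrocyte markers, held 837 CPM of Ugt8a in the fluconazole library and 705 CPM in the vehicle library. Its median was 1513 UMIs per barcode in the fluconazole library and 1181 in the vehicle library, and ribosomal transcripts were 0.705% of UMIs with fluconazole and 1.00% with vehicle. Cers2 stood there at 58.2 CPM with fluconazole and 53.4 CPM with vehicle and Degs1 at 19.4 CPM with fluconazole and 24.8 CPM with vehicle, both far under their oligodendrocyte levels, while Fa2h stood at 584 CPM with fluconazole and 587 CPM with vehicle.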

How the results depend on the processing

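Of 84 log2 ratios, all kept their direction, or moved by less than their counting interval, under resolution 0.5, another scaling, the enzymes kept for clustering, the richest barcode left out and haemoglobin-rich barcodes kept (the last chosen after seeing the data). With doublets kept, Sgms1 in mural cells turned to -0.076. Thinning moved 18 ratios beyond their interval, the unweighted mean over clusters 10, and the free RNA correction 4 of the 78 it could give; the cause was not tested. Thinning took Degs1 in astrocytes to -0.22 and Cers6 in endothelial cells to -0.35, and resolution 0.5 took Degs1 in astrocytes to -0.48. The free RNA correction gave no value for Cers6 in endothelial cells, whose estimate exceeded the level. Ugt8a in glutamatergic neurons stood at -1.03 after thinning and at -1.23 with the free RNA correction, and between -1.23 and -0.67 under all alternatives. Sgms1 in endothelial cells stayed between 0.26 and 0.28 and Ugt8a in oligodendrocytes between -0.38 and -0.32. At 20 UMIs in place of 100, pathway genes past 0.5 numbered 4 in oligodendrocytes, 2 in microglia and 4 in precursors; at 500 UMIs none of the list could be read in precursors, so the count there was 0. The highest class of a gene differed only after thinning, in 1 of 20 cases (Cers5, fluconazole library). No paired analysis was possible because each treatment has 1 library.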
